A study of Mus musculus with 9 samples.

Results

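The genes described here are 10 cohesin genes of the mouse among the 24505 genes of the count table. They were chosen by name, without use of measured values, as the meiotic cohesin subunits and their mitotic counterparts, and all 10 were present in the table and passed the filter on low counts in each comparison. They are the kleisins Rec8, Rad21l and Rad21, the ATPases Smc1b, Smc1a and Smc3, the STAG subunits Stag3, Stag1 and Stag2, and the loader subunit Nipbl. Poly(A) RNA was sequenced from 9 libraries of germ cells sorted by fluorescence from testes of Uchl1-eGfp mice, whose EGFP is under the Uchl1 promoter. In/B spermatogonia (intermediate and type B, the last mitotic germ cell stages) were sorted as EGFP-bright cells at P17, and preleptotene (PL) spermatocytes, which are entering meiosis, as EGFP-dim cells at P19, with 3 libraries per group.

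The mice came from a C57BL/6 background outcrossed to CD-1, and testes of at least 5 pups of a litter were pooled for each preparation. All 3 groups shared the same synchronization: WIN 18,446, an inhibitor of retinoic acid (RA) synthesis, was given from P1 at 100 µg per g body weight until P10 by the design text or P11 by the protocol, and 1 subcutaneous dose of RA (10 µl, 10 µg per µl) followed at P11. WIN 18,446 was then stopped in the RA-sufficient PL group and continued in the RA-deficient PL group to block RA synthesis in the testis after the injection, and the labels of the In/B libraries do not name either regimen. The libraries of each group served as replicates, and p-values measure the spread between these libraries, since the labels do not say whether each is a separate preparation. Since cells were sorted and RNA was pooled, fewer cells of a type and less RNA per cell cannot be told apart.

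Cohesin is a ring that holds sister chromatids together and folds chromosomes into loops. An SMC1 and an SMC3 ATPase form most of the ring, a kleisin closes it, a STAG protein binds the kleisin, and NIPBL with MAU2 loads the complex onto DNA. Germ cells that enter meiosis make further versions of 3 of these parts: REC8 and RAD21L beside RAD21, SMC1B beside SMC1A, and STAG3 beside STAG1 and STAG2. These meiotic complexes form the chromosome axis on which homologs pair, and REC8 holds sister chromatids together until the meiotic divisions.

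Total counts ran from 12612959 to 27042274 per library, and members had 134 to 43939 counts in a library. Values below are read counts scaled for library size (CPM) with TMM factors. Germ cell transcripts Ddx4 (396 to 540 CPM) and Dazl (953 to 2362 CPM) were high in all 9 libraries. Uchl1, whose promoter drives the sorted EGFP, was at 2352 to 3657 CPM in In/B. Its level was 425 to 613 CPM in RA-sufficient PL and 991 to 1885 CPM in RA-deficient PL. Of 8 germ cell and stage genes, 4 were called higher and 0 lower in RA-deficient than in RA-sufficient PL. Of all genes 4.47% and 11% were called in these directions. The 3 libraries of the RA-deficient PL group did not match each other in some stage genes. Kit, a receptor of differentiating spermatogonia, was at 561 and 521 CPM in replicates 1 and 2 and at 20.3 CPM in replicate 3. Dmrt1, a spermatogonial transcription factor, was at 460, 485 and 111 CPM. Among the other stage genes Zbtb16 was highest in replicate 3, at 168, 145 and 227 CPM. Gfra1 had no such split, at 24.8, 17.9 and 20.6 CPM. In/B libraries had 327 to 404 CPM of Kit and RA-sufficient PL libraries 20.2 to 41.0 CPM. In/B replicate 1 and RA-sufficient PL replicate 1 also stood apart from their groups, with a chi-square per degree of freedom of 35.8 to 59.4 against the other libraries of the group, compared with 6.15 and 10.8 between those others. All 7 Sertoli cell markers in the table were called higher in RA-sufficient PL than in In/B and lower in RA-deficient than in RA-sufficient PL, with a summed level of 66.3 to 342 CPM in In/B, 2789 to 3618 CPM in RA-sufficient PL and 286 to 503 CPM in RA-deficient PL. None of these markers was at 0 in a library. The summed Leydig, stromal, macrophage and spermatid markers stayed at or below 193 CPM in each library. The part of these cells in the results below was not tested.

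Against In/B, Rad21l, Smc1b and Nipbl rose in both PL groups, and Rad21 and Smc1a fell in both. Smc3 and Stag3 passed the 2-fold call in RA-deficient PL, and they were also higher there than in RA-sufficient PL, by less than 2-fold. A gene was called when it differed by more than 1 on the log2 scale and had an adjusted p below 0.05 in the quasi-likelihood test of edgeR, with p-values adjusted over all genes tested by Benjamini-Hochberg. In RA-sufficient PL against In/B, 3 of 10 members were called higher and 2 lower, where 26.1% and 19.3% of all 15001 genes tested were called in these directions (45.4% in either). In RA-deficient PL against In/B, 5 were called higher and 2 lower, against 11.4% and 11.8% of 14877 genes (23.2% in either direction). Between the PL groups edgeR's test called 0 of 10 members, against 15.5% of 15352 genes (4.47% higher and 11% lower). There 4 members had an unadjusted p below 0.05, all higher in RA-deficient PL, where 17.6% of all genes were higher by that count, and DESeq2 also called 0, against 5.18% of 17807 genes higher and 13.1% lower. The median log2 fold change of the members was 0.13, 0.71 and 0.23 in these comparisons, and that of all genes 0.04, 0.00 and -0.09. Of all called genes, 49.1% were higher in RA-deficient PL than in In/B and 28.8% higher than in RA-sufficient PL, and with library size alone in place of TMM these shares were 28.9% and 17.5%. The first pair of comparisons shares the In/B libraries, so their values are given side by side and are not independent.

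**Figure D1:**
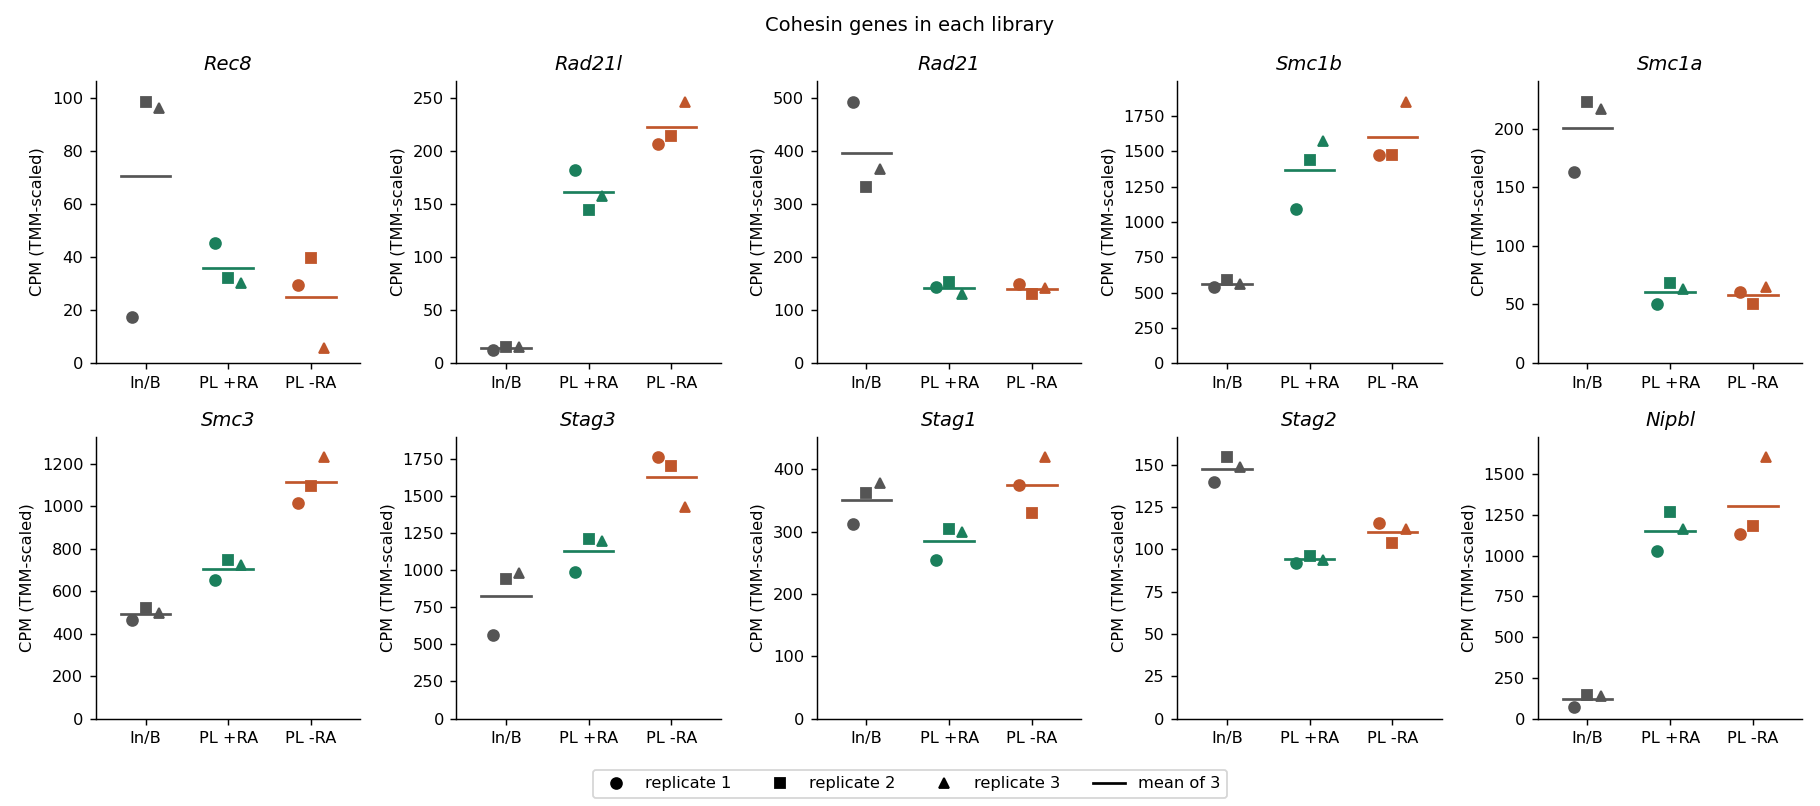
TMM-scaled CPM (linear axis from 0, own scale per gene) of the 10 cohesin genes in In/B, RA-sufficient PL (PL +RA) and RA-deficient PL (PL -RA) libraries, with a symbol for each replicate number and a line at the mean of 3. Rad21l lies at 12.0 to 15.2 CPM in In/B and at 145 CPM or above in both PL groups, while the Rec8 values of all 3 groups overlap.

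The kleisins showed the widest contrast. Rad21l, which encodes a kleisin found in meiotic cells, lies on chr2:151471140-151494269 on the minus strand (mm9, GENCODE M1). It was at 12.0, 15.1 and 15.2 CPM in the In/B libraries, at 182, 145 and 158 CPM in RA-sufficient PL and at 207, 214 and 247 CPM in RA-deficient PL. No library of a PL group overlapped In/B, and the PL groups did not overlap each other. Rad21l rose 11.9-fold in RA-sufficient PL (log2 fold change 3.58 ± 0.16 SE, adjusted p = 1.03e-05 from edgeR) and 17.8-fold in RA-deficient PL (4.15 ± 0.16, adjusted p = 1.56e-05), the largest rise of the members in both comparisons. Between the PL groups the log2 difference of 0.45 ± 0.14 missed the threshold (edgeR adjusted p = 0.056). It had an adjusted p of 0.0347 without RA-sufficient replicate 1 and of 0.0437 without RA-deficient replicate 3, below a 2-fold difference in both cases.

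Rad21 (chr15:51794151-51823306, minus strand) encodes the kleisin of dividing somatic cells and spermatogonia. Its level was 493, 333 and 366 CPM in In/B, 143, 153 and 130 CPM in RA-sufficient PL and 149, 130 and 141 CPM in RA-deficient PL. Every PL library was below every In/B library, and the PL groups overlapped. Rad21 fell 2.70-fold with RA (log2 -1.43 ± 0.17, edgeR adjusted p = 0.000138) and 2.53-fold under RA deficiency (-1.34 ± 0.17, edgeR adjusted p = 0.000834). The difference between the PL groups was -0.03 on the log2 scale with a 95% interval from -0.32 to 0.27.

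Rec8 (chr14:56236874-56244232, plus strand) encodes the kleisin that keeps sister chromatids joined through the first meiotic division. It was not called in any comparison. Its level was 17.5, 98.4 and 96.1 CPM in In/B, 45.3, 32.1 and 30.0 CPM in RA-sufficient PL and 29.4, 39.5 and 5.86 CPM in RA-deficient PL. The low In/B value is replicate 1 and the low RA-deficient value is replicate 3, libraries that also stood apart in other genes, and every pair of groups overlapped. The log2 fold change was -0.92 ± 0.52 in RA-sufficient PL (edgeR adjusted p = 0.153), -1.32 ± 0.76 in RA-deficient PL (edgeR adjusted p = 0.217) and -0.53 ± 0.61 between the PL groups (edgeR adjusted p = 0.559). Without In/B replicate 1 Rec8 was called lower in RA-sufficient PL, at -1.39 (edgeR adjusted p = 0.000675). Without In/B replicate 1 and RA-deficient replicate 3 together it was called lower in RA-deficient PL, at -1.32 (edgeR adjusted p = 0.000385), whereas leaving out either library alone gave -1.79 (adjusted p = 0.103) and -0.85 (adjusted p = 0.288).

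Ctcfl and Stra8 shared with Rec8 the lowest library of In/B and of RA-deficient PL, but not its levels between groups. These lowest libraries were not particular to them. In/B replicate 1 was the lowest of its group for every member but Rad21. Stag3, and among genes named below Mau2, Pds5a, Esco2, Sgol1, Espl1, Chtf18 and Timeless, had the same lowest libraries in both groups. In RA-deficient replicates 1 and 2 Ctcfl and Stra8 were above every In/B library, whereas Rec8 there was below In/B replicates 2 and 3. Ctcfl, which encodes the germ cell paralog of the insulator protein CTCF, was at 30.0, 99.0 and 88.2 CPM in In/B, 35.3, 12.4 and 9.62 CPM in RA-sufficient PL and 140, 147 and 28.7 CPM in RA-deficient PL. Like Rec8 it was lowest in replicate 1 of In/B and in replicate 3 of the RA-deficient group. Stra8, a gene induced by RA at meiotic entry, was at 54.4, 165 and 150 CPM in In/B, 444, 126 and 121 CPM in RA-sufficient PL and 377, 365 and 81.5 CPM in RA-deficient PL, with the same libraries lowest in these groups. The part of stage differences between libraries in the Rec8 values was not tested.

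**Figure D2:**
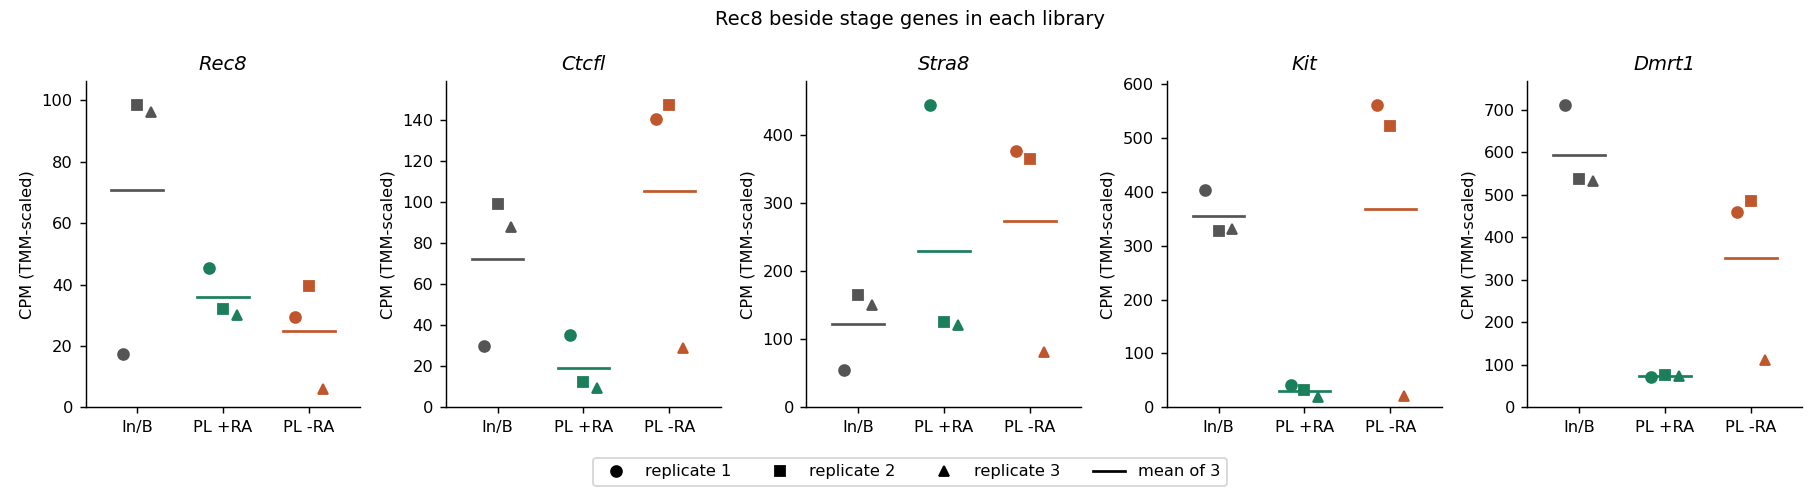
TMM-scaled CPM (linear axis from 0) of Rec8, Ctcfl, Stra8, Kit and Dmrt1 in each library of In/B, RA-sufficient PL (PL +RA) and RA-deficient PL (PL -RA), with a line at the mean of 3. Replicate 3 of the RA-deficient group is the lowest of its group for all 5 genes, and replicate 1 of In/B is the lowest of its group for Rec8, Ctcfl and Stra8.

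The SMC1 pair changed in the same directions as Rad21l and Rad21, with a rise of the meiotic gene and a fall of the mitotic gene. Smc1b (chr15:84895121-84962387, minus strand), the meiosis-specific SMC1, was already abundant before meiosis, at 540, 591 and 559 CPM in In/B, and was at 1093, 1441 and 1571 CPM in RA-sufficient PL and 1475, 1475 and 1851 CPM in RA-deficient PL. Neither PL group overlapped In/B. Smc1b rose 2.53-fold (log2 1.34 ± 0.14, edgeR adjusted p = 8.6e-05) and 3.19-fold (1.68 ± 0.11, edgeR adjusted p = 6.52e-05) in RA-sufficient and RA-deficient PL. The PL groups overlapped and differed by 0.23 on the log2 scale, with a 95% interval from -0.12 to 0.58.

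Smc1a (chrX:148450971-148497237, plus strand), the SMC1 of mitotic cells, was at 163, 223 and 217 CPM in In/B, 50.5, 68.7 and 63.2 CPM in RA-sufficient PL and 60.6, 50.3 and 64.5 CPM in RA-deficient PL. All PL values lay below all In/B values. Smc1a fell 3.17-fold (log2 -1.67 ± 0.16, edgeR adjusted p = 5.99e-05) and 3.06-fold (-1.61 ± 0.16, edgeR adjusted p = 0.000289), the largest called fall of the members in both comparisons. RA-deficient and RA-sufficient PL differed by -0.06 with a 95% interval from -0.46 to 0.34.

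The 250 bases before the annotated starts of Smc1b and Smc1a are shown because these paralogs moved in opposite directions in both PL groups. They are RefSeq sequence placed on mm9 by an exact match, chr15:84962388-84962637 on the minus strand for Smc1b and chrX:148450721-148450970 on the plus strand for Smc1a, written 5′ to 3′ toward the start. Capitals mark matches to the motifs searched on both strands.
Smc1b: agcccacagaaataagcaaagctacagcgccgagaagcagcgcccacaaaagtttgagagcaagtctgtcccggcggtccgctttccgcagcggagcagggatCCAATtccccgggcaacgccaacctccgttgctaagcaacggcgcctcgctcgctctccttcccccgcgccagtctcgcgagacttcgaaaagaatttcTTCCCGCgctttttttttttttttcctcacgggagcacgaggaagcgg
Smc1a: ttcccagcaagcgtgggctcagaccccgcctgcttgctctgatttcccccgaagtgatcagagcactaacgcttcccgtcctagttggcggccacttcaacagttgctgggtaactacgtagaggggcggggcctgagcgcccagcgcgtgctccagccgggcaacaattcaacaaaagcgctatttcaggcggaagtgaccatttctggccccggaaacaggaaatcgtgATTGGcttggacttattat
The Smc1b window holds the E2F letters TTCCCGC at bases -48 to -42 and a CCAAT box at -147 to -143, counted from the start, and its GC content is 58%. The Smc1a window holds a CCAAT box on the other strand (ATTGG) at -19 to -15, no E2F letters, and a GC content of 56.8%. Of 32536 mouse windows of this length, 3.84% hold the E2F letters and 33.8% a CCAAT box. Windows were found for 7 of 10 members, and not for Rad21, Stag2 and Nipbl. The window of Stag1 also holds the E2F letters, but it lies before a RefSeq start that is 45650 bases after the GENCODE start. That of Rad21l lies before an annotated start codon and may not be its promoter. The E-box CACGTG, present in 6.04% of all windows, was found in the window of Stag3 alone among these 7. It is shown with its flanks at chr5:138721557-138721582 on the plus strand, a stretch that lies before the RefSeq start and after the GENCODE start.
Stag3: cgctggagccCACGTGacaggactgc
The CRE letters TGACGTCA, the nuclear receptor letters AGGTCA and the STRA8 motif CNCCTCAG, held by 1.56%, 14% and 6.46% of all windows, were in 0 of the 7 windows. A match is a description of letters and was not tested as a site.

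Smc3 (chr19:53674886-53720323, plus strand) encodes the ATPase that mitotic and meiotic rings share. It was at 462, 519 and 496 CPM in In/B, 651, 745 and 722 CPM in RA-sufficient PL and 1014, 1093 and 1229 CPM in RA-deficient PL. The 3 groups formed 3 separate ranges. Smc3 was 1.49-fold higher in RA-sufficient PL than in In/B (log2 0.58 ± 0.10, edgeR adjusted p = 0.0013), below the 2-fold call, and rose 2.54-fold in RA-deficient PL (1.34 ± 0.10, edgeR adjusted p = 0.000108). The direct difference between the PL groups was 1.57-fold (log2 0.65 ± 0.11, edgeR adjusted p = 0.00669), and its adjusted p stayed between 0.00523 and 0.036 when any single library was left out. With library size alone in place of TMM the difference was 0.47, and the median of all genes in this comparison shifted by -0.18.

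Stag3 (chr5:138721468-138753621, plus strand), the STAG subunit of meiotic complexes, was at 561, 936 and 981 CPM in In/B, 986, 1207 and 1193 CPM in RA-sufficient PL and 1757, 1703 and 1424 CPM in RA-deficient PL. The groups did not overlap, although In/B replicate 3 and RA-sufficient replicate 1 differed by little. Stag3 was 1.42-fold higher in RA-sufficient PL (log2 0.51 ± 0.20, edgeR adjusted p = 0.0496) and rose 2.22-fold in RA-deficient PL (1.15 ± 0.20, edgeR adjusted p = 0.00334). Without In/B replicate 1 these values were 0.29 (adjusted p = 0.0735) and 0.94 (adjusted p = 0.00322), and the second was then below the call, as it was at 0.84 (edgeR adjusted p = 0.0104) without TMM scaling. Between the PL groups Stag3 was 1.44-fold higher with RA deficiency (0.53 ± 0.12, edgeR adjusted p = 0.0218). This adjusted p was above 0.05 in 5 of 6 fits that left out a library, at 0.063 to 0.0961, and was 0.00628 without RA-deficient replicate 3.

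The STAG subunits of mitotic cells were not called in any comparison. Stag1 (chr9:100498217-100858964, plus strand) was at 312, 363 and 378 CPM in In/B, 254, 304 and 299 CPM in RA-sufficient PL and 374, 331 and 419 CPM in RA-deficient PL. The RA-sufficient values lay below both other groups, which overlapped. Its log2 differences were -0.24, 0.26 and 0.39, with edgeR adjusted p-values of 0.109, 0.143 and 0.0512. Stag2 (chrX:39502494-39630362, plus strand) was at 140, 154 and 149 CPM in In/B, 92.3, 96.2 and 94.1 CPM in RA-sufficient PL and 115, 104 and 112 CPM in RA-deficient PL. No Stag2 groups overlapped, and it was 1.51-fold lower in RA-sufficient PL than in In/B (log2 -0.59 ± 0.10, edgeR adjusted p = 0.00117), below the 2-fold call. The other 2 log2 differences of Stag2 were -0.25 and 0.22, with edgeR adjusted p-values of 0.124 and 0.198.

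Nipbl (chr15:8241225-8394463, minus strand) encodes the larger subunit of the cohesin loader. It was at 68.3, 146 and 141 CPM in In/B, 1025, 1264 and 1162 CPM in RA-sufficient PL and 1131, 1182 and 1601 CPM in RA-deficient PL. The lowest PL library was far above the highest In/B library. Nipbl rose 10.1-fold (log2 3.34 ± 0.27, edgeR adjusted p = 2.62e-05) and 12.4-fold (3.63 ± 0.30, edgeR adjusted p = 0.000126). The PL groups overlapped and differed by 0.18, with a 95% interval from -0.18 to 0.54.

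**Figure D3:**
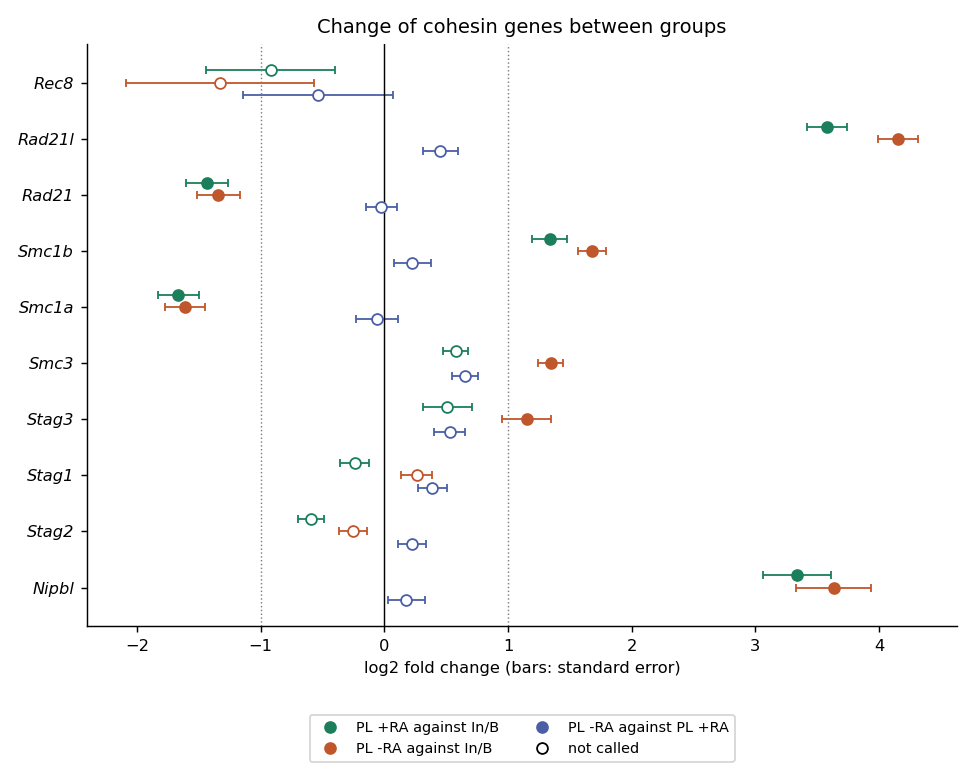
Log2 fold changes (points) with standard errors (bars) of the 10 cohesin genes in the 3 comparisons, with dotted lines at -1 and 1 and filled points for called genes. Rad21l, Smc1b and Nipbl are filled to the right and Rad21 and Smc1a to the left against In/B, and no point is filled between the PL groups.

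Counted without a size limit, at an adjusted p below 0.05 in edgeR's test, 5 members were higher and 3 lower in RA-sufficient PL than in In/B, where 33.8% and 31.2% of all genes were (65% in either direction). The same count was 5 higher and 2 lower in RA-deficient PL, where 18.4% and 18.3% of all genes were (36.7% in either direction), and 2 higher (Smc3 and Stag3) and 0 lower between the PL groups, where 11% and 12.6% were (23.6% in either direction). Groups did not overlap for 9, 8 and 5 of 10 members in the 3 comparisons, and for 71.5%, 54.6% and 47.4% of all genes.

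Levels of different genes were compared as CPM per kb of annotated exon. In In/B cells Stag3 (144 ± 40.2 SD, n = 3), Smc1b (139 ± 6.36), Rad21 (110 ± 23.5) and Smc3 (88.8 ± 5.16) led, and neighbours among these overlapped. Smc1a (34.8 ± 5.69), Stag1 (34.2 ± 3.38), Rec8 (25.7 ± 16.8) and Stag2 (17.9 ± 0.901) followed, again with each overlapping the next, and Nipbl (13.5 ± 4.95) and Rad21l (8.52 ± 1.10) were the lowest and overlapped. In RA-sufficient PL the order was Smc1b (339 ± 61.2), Stag3 (197 ± 21.7), Nipbl (131 ± 13.6), Smc3 (127 ± 8.86), Rad21l (98.0 ± 11.5), Rad21 (39.4 ± 3.20) and Stag1 (27.8 ± 2.68), in which Nipbl and Smc3 alone overlapped as neighbours. Rec8 (13.0 ± 3.02), Stag2 (11.4 ± 0.234) and Smc1a (10.5 ± 1.62) came last and overlapped from one to the next. In RA-deficient PL Smc1b (396 ± 53.7), Stag3 (284 ± 31.2) and Smc3 (201 ± 19.6) were separate, Nipbl (148 ± 29.3) overlapped Rad21l (135 ± 12.7), and Rad21 (38.9 ± 2.68) overlapped Stag1 (36.5 ± 4.31). Stag2 (13.3 ± 0.734) was separate, and Smc1a (10.1 ± 1.27) overlapped Rec8 (9.06 ± 6.28), which was the lowest. The Rad21l model of 1650 exon bases holds almost no bases outside its coding sequence of 1647, whereas that of Rad21 has 3604 exon bases for a coding sequence of 1905, which raises Rad21l relative to Rad21 on this scale. The order changed per kb of coding sequence. Rad21 (209 ± 44.4) then stood above Smc1b (150 ± 6.86) in In/B without overlap, and Stag1 above Smc1a, also without overlap. In RA-sufficient PL Smc3 (193 ± 13.5) stood above Nipbl (137 ± 14.3) without overlap, Smc1b and Stag3 overlapped, and Stag1 was next to Rad21 and overlapped it. In RA-deficient PL Stag3 (438 ± 48.0) and Smc1b (428 ± 58.0) overlapped, and Stag1 (99.3 ± 11.7) stood above Rad21 (73.6 ± 5.07).

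Per exon length, the kleisin set passed from mostly Rad21 to mostly Rad21l. Rad21 made up 90.9%, 67.3% and 69.7% of kleisin transcripts in In/B, 23.8%, 29.9% and 25.3% in RA-sufficient PL and 23.3%, 20.0% and 20.5% in RA-deficient PL. Rad21l made up 4.82%, 6.64% and 6.30%, then 66.3%, 61.9% and 67.1%, and then 70.7%, 72.0% and 78.3%. The In/B shares of both genes were separate from those of both PL groups. Rec8 held 4.23%, 26.1% and 24.0% in In/B, 9.90%, 8.24% and 7.65% in RA-sufficient PL and 6.02%, 7.97% and 1.12% in RA-deficient PL, so that in 2 of 3 In/B libraries it had a larger share than Rad21l and in each PL library a smaller one. Rad21l and Rec8 together made up 24.0%, 73.7% and 78.7% on average per exon length and 19.3%, 61.2% and 67.0% per coding length. The lead of Rad21l over Rad21 was smaller on other scales. Per coding kb Rad21l averaged 98.1 in RA-sufficient PL, against 74.5 for Rad21 and 20.2 for Rec8. In RA-deficient PL these values were 135, 73.6 and 14.1. In CPM without length scaling they were 162, 142 and 35.8 in RA-sufficient PL and 223, 140 and 24.9 in RA-deficient PL.

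Smc1b made up 82.5%, 79.1% and 78.7% of SMC1 transcripts in In/B, 96.9%, 96.8% and 97.3% in RA-sufficient PL and 97.2%, 97.7% and 97.6% in RA-deficient PL. The meiotic version was thus the larger part before meiosis as well, unlike Rad21l among the kleisins. Stag3 made up 67.5%, 75.1% and 75.7% of STAG transcripts in In/B, 82.7%, 83.6% and 83.7% in RA-sufficient PL and 85.9%, 86.9% and 82.0% in RA-deficient PL. All PL values lay above all In/B values, and the STAG ranges of the PL groups overlapped.

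**Figure D4:**
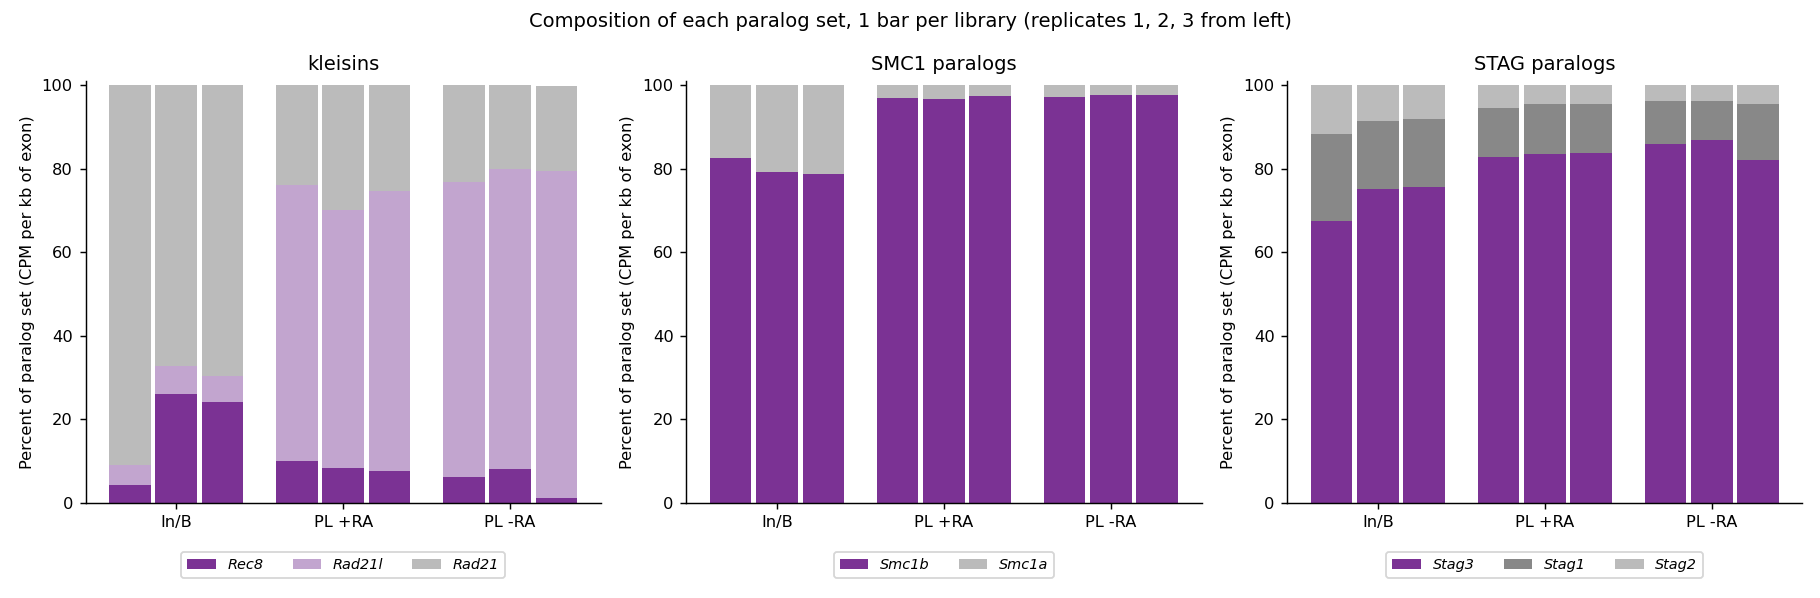
Share in percent (stacked bars to 100%, CPM per kb of exon) of each gene in the kleisin, SMC1 and STAG sets, with 1 bar per library and replicates 1 to 3 from left in In/B, RA-sufficient PL (PL +RA) and RA-deficient PL (PL -RA). Rad21l fills 4.82% to 6.64% of the kleisin bars in In/B and 61.9% to 78.3% in the PL groups, and Smc1b fills at least 78.7% of each SMC1 bar.

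Summed over paralogs per exon kb, the SMC1 genes stood at 174 ± 11.6, 349 ± 62.6 and 406 ± 54.7 (SD, n = 3 libraries) in In/B, RA-sufficient and RA-deficient PL, the STAG genes at 196 ± 44.3, 236 ± 24.5 and 334 ± 27.9, and Smc3 at 88.8 ± 5.16, 127 ± 8.86 and 201 ± 19.6. The kleisin sum was 144 ± 6.66, 150 ± 14.1 and 183 ± 6.93. Per coding kb it was instead 257 ± 18.3, 193 ± 16.2 and 223 ± 3.75, so its direction against In/B turned with the length used, whereas the other 3 sums kept their order at 205, 382 and 443, 354, 404 and 566, and 135, 193 and 305.

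Calls in the gene lists below stand beside the shares of all genes called in the same comparison, 26.1% higher and 19.3% lower in RA-sufficient PL against In/B, 11.4% and 11.8% in RA-deficient PL against In/B, and 4.47% and 11% between the PL groups. Among 8 other genes for loading, release and acetylation of cohesin, 1 fell in each PL group against In/B, a share near that of all genes. This was Cdca5, which encodes sororin, the mitotic protector of cohesion, at 80.9 to 107 CPM in In/B, 15.9 to 21.0 CPM in RA-sufficient PL and 19.8 to 22.2 CPM in RA-deficient PL. Its log2 fold changes were -2.26 ± 0.17 (edgeR adjusted p = 2.14e-05) and -1.99 ± 0.17 (edgeR adjusted p = 0.000155). Esco2, an acetyltransferase of SMC3, was called higher in RA-deficient PL at a log2 fold change of 1.00 ± 0.13 (edgeR adjusted p = 0.000838), just past the limit, and lost the call under 7 other settings of the scaling, filter, fit, test or tool and without In/B replicate 1 or RA-deficient replicate 1 or 2. Mau2, Wapl, Pds5a, Pds5b, Esco1 and Hdac8 were not called in a comparison. Between the PL groups 0 of 8 were called by edgeR or by DESeq2, and 4 had an unadjusted p below 0.05, all higher with RA deficiency, where 17.6% of all genes were. At an adjusted p below 0.05 in edgeR's test 3 of 8 were higher with RA deficiency, by less than 2-fold, where 11% of all genes were. These were the cohesin release gene Wapl (log2 0.59 ± 0.12, adjusted p = 0.0142), the acetyltransferase gene Esco1 (0.63 ± 0.13, adjusted p = 0.0133) and Pds5a (0.47 ± 0.13, adjusted p = 0.0417), which encodes a partner of WAPL. Leaving out a library took the adjusted p above 0.05 in 2 of 6 fits for Wapl and for Esco1 and in 4 of 6 for Pds5a. The median log2 fold change of the list was -0.09, 0.41 and 0.32 in the 3 comparisons.

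Of 8 genes for protection and cleavage of cohesion, 7 were tested and Sgol2b had too few counts. Against In/B 3 of 7 rose and 2 fell in RA-sufficient PL, and 2 rose and 2 fell in RA-deficient PL. Meikin, a meiosis-specific kinetochore protein, rose in both PL groups (log2 2.52 ± 0.47, edgeR adjusted p = 0.00163, and 2.64 ± 0.63, edgeR adjusted p = 0.0129), from 0.447 to 1.78 CPM in In/B to 5.04 to 10.0 CPM in PL libraries. Bub1, a kinase that marks centromeres for shugoshin, rose by 1.58 ± 0.20 and 1.67 ± 0.19 (edgeR adjusted p = 0.000176 and 0.000492). Sgol1, the shugoshin of mitosis, fell by 2.46 and 1.44 on the log2 scale (edgeR adjusted p = 1.37e-05 and 0.0086). Sgol2, the other shugoshin gene tested, was also lower, by 0.96 and 0.44 (edgeR adjusted p = 0.000204 and 0.0545), and was not called in any comparison. Espl1, which encodes the kleisin-cutting protease separase, fell in RA-sufficient PL by 1.25 (edgeR adjusted p = 2.045e-05). In RA-deficient PL it was lower by 0.37 (edgeR adjusted p = 0.0669), which was not called. Pttg1, its inhibitor securin, fell in RA-deficient PL by 1.72 (edgeR adjusted p = 0.00645). In RA-sufficient PL it was lower by 0.74 (edgeR adjusted p = 0.0235), below the call. Gsg2, which encodes the histone kinase haspin, was at 22.1, 32.6 and 26.8 CPM in In/B, 127, 80.9 and 68.1 CPM in RA-sufficient PL and 14.4, 15.4 and 34.9 CPM in RA-deficient PL. It rose in RA-sufficient PL (log2 1.82 ± 0.25, edgeR adjusted p = 0.000321) and was the 1 gene of the list that edgeR called between the PL groups, lower with RA deficiency (-2.11 ± 0.42, edgeR adjusted p = 0.0134). DESeq2 called Gsg2 and also Pttg1 lower there (-1.10, DESeq2 adjusted p = 0.0418), which edgeR did not (-1.11 ± 0.43, adjusted p = 0.101). Espl1 was higher with RA deficiency by less than 2-fold (0.76 ± 0.14, edgeR adjusted p = 0.0107), with an adjusted p above 0.05 in 1 of 6 fits that left out a library.

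Of 7 genes that establish cohesion at replication forks, 4 fell in RA-sufficient PL against In/B, where 19.3% of all genes fell. These were the helicase gene Ddx11 (log2 -1.64 ± 0.17), the clamp loader genes Chtf18 (-2.08 ± 0.15) and Dscc1 (-2.66 ± 0.29) and Wdhd1 (-1.39 ± 0.11). In RA-deficient PL, where 11.8% of all genes fell, 2 fell, Ddx11 by 1.48 and Wdhd1 by 1.03, and Wdhd1 was below the call without In/B replicate 1 or RA-deficient replicate 3. Chtf18 was at 188 and 178 CPM in RA-deficient replicates 1 and 2 and at 65.4 CPM in replicate 3, against 34.0 to 48.6 CPM in RA-sufficient PL and 170 to 193 CPM in In/B. Replicates 1 and 2, in which Kit was above its In/B range, were near In/B in Chtf18. With RA-sufficient PL as the reference Chtf18 was higher (log2 1.78 ± 0.39, edgeR adjusted p = 0.0192), a call that was lost without any 1 of 5 libraries. The fork protection gene Timeless was also higher (1.26 ± 0.20, edgeR adjusted p = 0.0063), at 165 to 275 CPM against 93.3 to 103 CPM. DESeq2 called these and also Dscc1 higher (1.55, DESeq2 adjusted p = 0.0154), whose adjusted p in edgeR was 0.0652, so that 2 of 7 were called by edgeR and 3 of 7 by DESeq2.

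Both genes listed for cohesin boundaries, where CTCF stops loop growth, fell in RA-sufficient PL. Ctcf was at 209 to 249 CPM in In/B and at 94.7 to 96.8 CPM in RA-sufficient PL (log2 -1.21 ± 0.11, edgeR adjusted p = 3.5e-05), and at 122 to 163 CPM in RA-deficient PL. Ctcfl fell by 1.87 ± 0.56 (edgeR adjusted p = 0.0165) although its groups overlapped, and was higher in RA-deficient than in RA-sufficient PL (2.44 ± 0.73, edgeR adjusted p = 0.0494). Leaving out a library took the adjusted p of Ctcfl above 0.05 in 2 of 6 fits of the first comparison and 4 of 6 of the second. Ctcf was 1.49-fold higher in RA-deficient than in RA-sufficient PL (0.57 ± 0.14, edgeR adjusted p = 0.025), below the 2-fold call, and its adjusted p was above 0.05 in 4 of 6 fits that left out a library.

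Of the 4 SMC genes outside cohesin, Smc2 of condensin fell in RA-sufficient PL (log2 -1.22 ± 0.13, edgeR adjusted p = 9.83e-05). In RA-deficient PL Smc2 was lower by less than the call (-0.66 ± 0.12, edgeR adjusted p = 0.00462). Smc4, Smc5 and Smc6 were not called. All 5 chromosome axis partners rose in both PL groups, where 26.1% and 11.4% of all genes did, and their median log2 fold change was 2.12 and 2.44. Sycp3, an axis protein that assembles on cohesin, was at 81.0 to 104 CPM in In/B, 403 to 612 CPM in RA-sufficient PL and 532 to 701 CPM in RA-deficient PL, a log2 rise of 2.48 ± 0.18 and 2.80 ± 0.16 (edgeR adjusted p = 1.64e-05 and 3.85e-05). Its partner Sycp2 rose by 2.18 and 2.31, the HORMA domain genes Hormad1 by 2.09 and 2.44 and Hormad2 by 2.12 and 2.5, and Iho1, which is needed for meiotic DNA breaks and is listed as Ccdc36 in the table, by 1.44 and 1.63. In the direct comparison of the PL groups, in which 15.5% of all genes were called, edgeR and DESeq2 called 0 of 5, and 0 had an unadjusted p below 0.05. The differences there lay between 0.01 for Sycp2 and 0.28 for Hormad2.

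**Figure D5:**
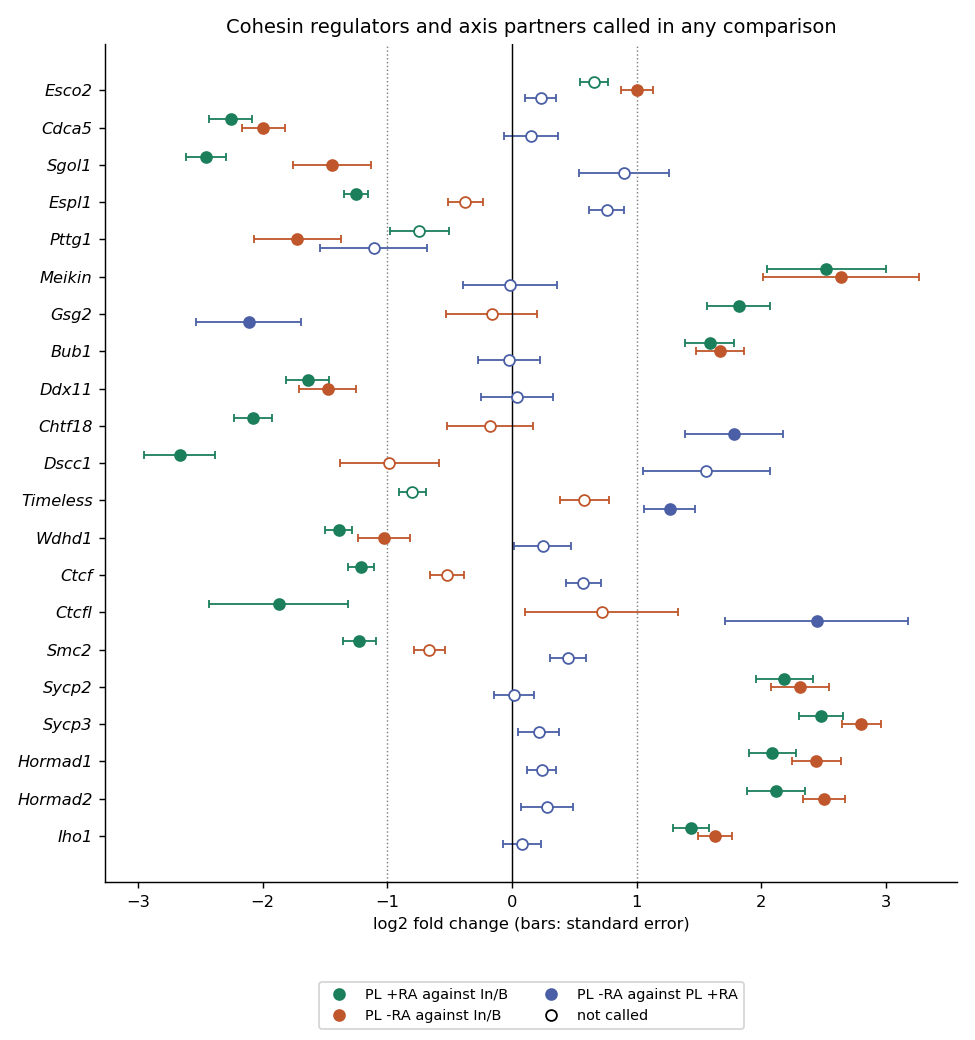
Log2 fold changes (points) with standard errors (bars) of the cohesin regulators and axis partners called in any of the 3 comparisons, with dotted lines at -1 and 1 and filled points for called genes. The 5 axis partners are filled to the right in both comparisons with In/B, and Gsg2, Chtf18, Timeless and Ctcfl are filled between the PL groups.

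The genes whose levels followed each meiotic member most closely were taken by Pearson's r of log2(CPM + 1) over the 9 libraries, among 9688 genes averaging 10 CPM or more, members left out. The 9 libraries fall into 3 groups, so r is a description. For Rad21l these were Gab2 (r = 0.998), 4933416C03Rik (0.997) and Acss2 (0.996), and for Smc1b Adamts6 (0.997), Dnpep (0.995) and Ltv1 (0.995). Stag3 was followed by Wbp2nl (0.985), Reck (0.982) and Ppp4r1l-ps (0.976). Rec8 had the lowest values, with Itgav (0.966), Dbt (0.955) and Ttc14 (0.946).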

How the data were processed

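mRNA was measured in 9 libraries, 3 each of In/B spermatogonia, RA-sufficient PL and RA-deficient PL spermatocytes. The values the authors deposited are whole-number read counts for each gene, not normalized. By the submitters' processing notes reads were handled with cutadapt 1.9, STAR 2.5.2b and featureCounts on mm9. The gene annotation and the strand setting of the counting are not given in the sources used here. Columns were matched to samples by name, and 0 were left unused. The members were picked by name and not by a measured value. Earlier results of these data were nevertheless known when the members, the other gene lists and the tests were chosen.

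Counts were scaled with TMM and filtered with filterByExpr, and pairs of groups were tested with edgeR 4.0.16 in R 4.3.3 (quasi-likelihood test, Benjamini-Hochberg adjustment over all genes tested, two-sided). Calls needed more than 1 on the log2 scale in either direction with an adjusted p below 0.05. The test was tested on simulated data. CPM were scaled over all 9 libraries. Standard errors are those of the fit, and intervals are 95% intervals of it. Lengths and coordinates come from GENCODE M1 on mm9. No member shared exon bases with another annotated gene or a 75-base word with another transcript. All members were named, then every gene of the other pathway lists called in a comparison, and the 3 genes most like each of Rec8, Rad21l, Smc1b and Stag3. Stra8, Kit, Dmrt1, Ddx4, Dazl, Uchl1, Zbtb16 and Gfra1 are named as markers of stage and germ cells. Uchl1, Zbtb16, Gfra1, Sgol2 and the uncalled loading and SMC genes were added after their values were seen. No pair of libraries of a group agreed within sampling noise (chi-square per degree of freedom 6.15 to 108), so none was counted once. Alternatives were the scaling, the filter, a single fit of all libraries, the replicate number as a block, other thresholds, each library left out and DESeq2 1.42.0. Python 3.11.15 with matplotlib 3.10.9 drew the figures.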

Additional observations from a re-analysis of the deposited data

Results flagged for a closer look

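Members and genes of the cohesin lists are given here when the direct test between the PL groups had an adjusted p below 0.05 (quasi-likelihood test of edgeR, Benjamini-Hochberg), which compares their change from In/B between these groups. Of all 15352 genes tested, 23.6% passed this rule, 11% higher and 12.6% lower. In the lists 2 of 10 members passed, 3 of 8 loading genes, 2 of 7 fork genes and 2 of 2 boundary genes. Of 7 protection genes 1 was higher and 1 lower, and 0 of 4 other SMC genes and 0 of 5 axis partners passed. Values are log2 differences, RA-deficient minus RA-sufficient PL, over 3 libraries per group. Among the members these were Smc3 at 0.65 and Stag3 at 0.53, both higher in 3 of 3 RA-deficient libraries than in any RA-sufficient library. Among the regulators they were the release gene Wapl at 0.59, its partner gene Pds5a at 0.47, the acetyltransferase gene Esco1 at 0.63, the separase gene Espl1 at 0.76, the haspin gene Gsg2 at -2.11, the clamp loader gene Chtf18 at 1.78, the fork gene Timeless at 1.26, and the boundary genes Ctcf at 0.57 and Ctcfl at 2.44. The PL groups did not overlap for these genes except for Ctcfl, and neither did they for 47.4% of all genes tested. These genes were picked by the test on the same libraries, so the lack of overlap is no further support for them. RA-deficient replicates 1 and 2 differed from replicate 3 in Kit and Dmrt1. In 10 of these 11 genes, all but Esco1, replicate 3 also lay farther from the nearer of replicates 1 and 2 than these lay from each other. In 7 of the 10 it was the RA-deficient library nearest to the RA-sufficient mean, at 34.9 CPM against 14.4 and 15.4 CPM for Gsg2 and at 246 CPM against 334 and 330 CPM for Espl1, and the other 3 were Smc3, Wapl and Ctcf. Replicate 3 stood apart across the whole table, with a chi-square per degree of freedom of 108 and 107 against replicates 1 and 2, compared with 19.8 between those. The share of all genes with this split was not computed, so it is not shown to be particular to these genes. Without replicate 3 all 11 kept their direction. The differences were then 0.59 for Smc3, 0.62 for Stag3, 0.90 for Espl1, -2.62 for Gsg2, 2.14 for Chtf18 and 2.94 for Ctcfl. Adjusted p in edgeR was then 0.000169 (Timeless) to 0.0178 (Ctcf). These p-values are no further support, since the genes were picked on the same libraries and the library standing apart was dropped. With each PL library dropped in turn, adjusted p exceeded 0.05 in 5 of 6 cases for Stag3 and Chtf18. This held in 4 of 6 for Pds5a, Ctcf and Ctcfl, 2 of 6 for Wapl and Esco1 and 1 of 6 for Espl1. Smc3, Gsg2 and Timeless stayed below 0.05 in all 6. The part of the difference between the RA-deficient replicates in the values was not tested.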

How the results depend on the processing

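The counts of called members were 3 higher and 2 lower, 5 and 2, and 0 and 0 in the comparisons of RA-sufficient PL with In/B, RA-deficient PL with In/B, and the PL groups. With an adjusted p below 0.05 alone the higher counts were 5 for the first and 2 for the third, by construction. The test against a fold change of 2 left 1 lower in the second. Stag3 lost its higher call there under that test of edgeR (adjusted p = 0.426), and also with library size alone (log2 0.84). With a library left out, the lower count of the first was 2 to 3 and the higher count of the second 4 to 5. Replicate numbers did not pair the libraries (correlations of deviations -0.27 to 0.13), and the fit with the replicate number as a block kept the counts of 3 and 2, 5 and 2, and 0 and 0, while Ctcfl in RA-sufficient PL then missed the threshold at an adjusted p of 0.0668 in edgeR and Esco2 in RA-deficient PL fell just short of the size limit. Library size alone shifted the median of all genes by -0.32 in RA-deficient PL against In/B, and turned Stag1 there to -0.053 and Nipbl between the PL groups to -0.0060. Rad21 between the PL groups turned to 0.0095 with all 9 libraries in 1 fit, and with a library left out ran from -0.11 to 0.043, above 0 without RA-sufficient replicate 1 or 2 or RA-deficient replicate 2. Smc1a ran from -0.16 to 0.051, above 0 without RA-sufficient or RA-deficient replicate 2. The cause of these turns was not tested, and none of these values was past the threshold.

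Without length scaling and per coding length (chosen after seeing the data), the meiotic share of kleisins was 58.1% and 61.2% in RA-sufficient PL and 63.9% and 67.0% in RA-deficient PL. That of SMC1 was 73.8% and 73.6% in In/B, 95.7% and 95.7% in RA-sufficient PL and 96.5% and 96.4% in RA-deficient PL, and that of STAG 61.6% and 62.0%, 74.8% and 75.1%, and 76.9% and 77.2%. The fit without In/B replicate 1 and RA-deficient replicate 3 together was also chosen after seeing the data. Of 1143 recomputed fold changes 1077 kept direction and side of the call, 46 lost the call, 12 were newly called and 8 turned. Members had at least 134 counts in each library, and Rec8 had the largest standard error of the 10 members in each comparison (0.52, 0.76 and 0.61 on the log2 scale).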
